A study of Mus musculus with 207 samples.

Results

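The AP-1 subunit genes Fos, Fosb, Jun, Junb and Jund, together with Egr1, Nr4a1, Atf3, Klf4 and Klf6, encode transcription factors of the immediate early response. These 10 genes were taken by name from the 44448 genes listed for 207 single cells of mouse pancreatic islets, and each was found once. The cells came from male mice aged 3 months (young, 138 cells) or 26 months (old, 69 cells). By their labels all of these are beta cells, which make insulin, and no strain, treatment or animal is given. Each cell was caught on a microfluidic chip, and its RNA was copied and amplified there. Values are in TPM, a level scaled for gene length and for a total of 1000000 in every cell. Because no label ties a cell to an animal, each age counts as 1 sample. No comparison here has a test or a replicate check, SDs are between cells, and percentages of cells carry exact Clopper-Pearson intervals (95%) that cover counting error only.

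The cells are numbered in their titles, young cells 1 to 138 and old cells 139 to 207. They are described in 6 stretches of those numbers (1-54, 55-86 and 87-138 in young cells, 139-158, 159-190 and 191-207 in old cells), which an earlier look at other measures of the same cells had set apart. What the stretches were in the laboratory is not given in the labels. The median number of genes at TPM 1 or above, the level called detected here, ran from 3614 to 5104.5 over the stretches. The 7 beta cell markers were present, with Ins1 and Ins2 at a median of 54.5% of the TPM of a young cell and 51.7% of an old one. In 6 cells (18, 32, 49, 72, 112 and 162) the 5 macrophage markers summed to at least 1000 TPM. Another islet hormone passed 1000 TPM in 7 old cells and no young cell. Gapdh was listed at 0 in 28 cells, so a gene listed at 0 may still have been expressed.

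Immediate early genes are transcribed within minutes of a stimulus, without new protein having to be made first, and their RNAs are short-lived. Serum response factor, at a motif called the CArG box, and CREB, at the cAMP response element (CRE), are the classical activators at their promoters. Fos proteins bind DNA only as partners of Jun proteins, whereas Jun proteins can also pair with each other. These pairs are called AP-1. In beta cells, glucose, calcium entry and cyclic AMP are known to induce Fos, Egr1 and Nr4a1. Enzymatic dissociation of a tissue into single cells is also known to induce the group.

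Promoter windows from 250 bases before to 50 bases after the RefSeq start (assembly GRCm38.p6) were matched for 9 of the 10 genes, all but Egr1. The 250 bases before the start are shown for 4 of them, because Fos, Fosb and Jun, which with Egr1 were in the pairs that varied together most, and Nr4a1, which varied differently over the young stretches, differ in the motifs they hold. Each is written 5′ to 3′ on the gene's own strand, with motif letters in capitals: TGACG (the CRE core) or its opposite strand CGTCA, GCGGGGGCG (an Egr site) or its opposite strand, TATAAA, and TGACATCA (a variant AP-1 site).
Fos, chr12:85473640-85473889, plus strand: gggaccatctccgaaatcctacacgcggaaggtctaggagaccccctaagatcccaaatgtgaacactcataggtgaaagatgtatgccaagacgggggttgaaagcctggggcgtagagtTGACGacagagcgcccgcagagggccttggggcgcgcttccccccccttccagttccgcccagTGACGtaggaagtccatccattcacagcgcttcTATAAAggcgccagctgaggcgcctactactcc
Fosb, chr7:19310046-19310295, minus strand: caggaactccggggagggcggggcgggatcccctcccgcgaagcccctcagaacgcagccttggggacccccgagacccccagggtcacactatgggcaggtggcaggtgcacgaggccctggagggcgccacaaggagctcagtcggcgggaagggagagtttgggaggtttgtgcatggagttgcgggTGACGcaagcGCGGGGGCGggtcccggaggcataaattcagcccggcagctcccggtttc
Jun, chr4:95052223-95052472, minus strand: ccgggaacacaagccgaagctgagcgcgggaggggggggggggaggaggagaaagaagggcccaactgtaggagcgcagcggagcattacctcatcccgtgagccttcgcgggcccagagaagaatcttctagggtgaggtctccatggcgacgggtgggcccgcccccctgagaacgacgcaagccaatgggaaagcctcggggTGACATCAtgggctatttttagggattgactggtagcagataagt
Nr4a1, chr15:101266596-101266845, plus strand: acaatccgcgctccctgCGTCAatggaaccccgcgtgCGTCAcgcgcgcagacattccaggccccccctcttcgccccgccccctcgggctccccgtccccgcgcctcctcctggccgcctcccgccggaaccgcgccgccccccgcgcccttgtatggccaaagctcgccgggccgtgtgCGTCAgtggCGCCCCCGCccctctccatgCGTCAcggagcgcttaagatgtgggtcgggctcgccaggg
The bases printed for Fos and Jun end just before the gene's first base, whereas the starts used for Fosb and Nr4a1 lie inside the full RefSeq span of these genes. The CRE core was in 6 of 9 windows, those of Fos, Fosb, Junb, Nr4a1, Atf3 and Klf4, against 20.8% of all 32851 windows, both strands searched. Fos held it 129 and 66 bases before the start, Fosb 60 bases before, and Nr4a1 at 4 places. The Egr site GCGGGGGCG was in 3 windows (Fosb, Klf4 and Nr4a1; 2.91% of all). In Fosb and Nr4a1 it lay within 10 bases of a CRE core, 50 and 60 bases before the start. TATAAA was in the windows of Fos, 33 bases before the start, and Junb, where it began at the start itself (13.6% of all). The variant TGACATCA, added to the search after the Jun sequence had been read, was in Jun and Klf6 (3.62% of all), and Jun held none of the other motifs. In these windows 0 of 9 had the full CRE TGACGTCA (1.79% of all; it contains the core), the AP-1 site TGACTCA (5.20%), the other Egr form GCGTGGGCG (0.612%) or the CArG box (1.63%). Bases outside these windows and the promoter of Egr1 were not searched, so the absence of a motif here holds for these windows only. A match is only a match of letters.

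Fos was the most abundant member in young and old cells, and young cells 55-86 had the most of it. Fos (chr12:85473890-85477274; gene positions are those of RefSeq on GRCm38.p6) is the founding partner of Jun in AP-1. It ran from 0.310 over a median of 448 to 2629 TPM in young cells and from 0.507 over a median of 81.2 to 1444 TPM in old cells. The ages overlapped over nearly their whole range, yet only 9 of 69 old cells were above the young median. The means were 557 ± 458 TPM (SD, 138 cells) and 191 ± 285 TPM (SD, 69 cells), and their log2 ratio, old over young, was -1.54. Over the stretches the young means were 432, 961 and 438 TPM and the old means 60.1, 204 and 322 TPM, in the order of the cell numbers. In cells 55-86 the lowest value was 56.2 TPM and the highest 2629, in cell 75. In cells 139-158 the median was 8.08 TPM, although Fos was detected in 17 of 20 of them (85.0%, interval 62.1% to 96.8%). Fos was never listed at 0.

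Fosb, the closest relative of Fos, was far less abundant and differed more between stretches. Fosb (chr7:19302696-19310118) ran from 0 over a median of 19.7 to 510.2 TPM in young cells and from 0 over a median of 2.85 to 93.0 TPM in old cells. The young means were 15.6, 171 and 33.4 TPM and the old means 3.28, 23.5 and 10.2 TPM. Cells 55-86 stood highest: 29 of 32 of them were above the median of cells 87-138, and 18 were above every cell of that stretch. Fosb was detected in 30 of 32 cells of stretch 55-86 (93.8%, 79.2% to 99.2%) and in 4 of 20 of stretch 139-158 (20.0%, 5.73% to 43.7%). The log2 ratio of old over young was -1.95, the lowest of the members, from means of 58.3 ± 87.8 and 14.4 ± 22.5 TPM (SD).

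Jun was the member whose level set cells 55-86 apart most clearly. Jun (chr4:95049036-95052222) is the DNA-binding partner that AP-1 is built on. It ran from 0 over a median of 12.1 to 309.5 TPM in young cells and from 0 over a median of 2.14 to 124 TPM in old cells. In cells 55-86 it ran from 7.07 over a median of 140.0 to 309.5 TPM and was detected in all 32. In cells 1-54 it ran from 0 over a median of 1.36 to 109.9 TPM, and in cells 87-138 from 0 over a median of 12.4 to 171 TPM. All 32 cells of stretch 55-86 were above the median of cells 1-54, and 18 were above every cell of that stretch. The log2 ratio of stretch means was 4.03 over cells 1-54 and 2.49 over cells 87-138. The old means were 11.1, 7.68 and 23.0 TPM, and their medians (2.05, 2.22 and 2.14 TPM) lay closer together. In the GENCODE annotation the antisense gene Junos overlaps Jun, and whether counting used the strand is not given in the sources used here, so reads of the pair cannot be told apart.

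Junb and Jund, the other Jun family genes, were low and had patterns of their own. Junb (chr8:84976909-84978748), which is itself induced early and can oppose Jun, had young means of 15.6, 17.8 and 7.61 TPM and old means of 0.400, 6.25 and 14.2 TPM. It was detected in 2 of 20 cells of stretch 139-158 (10.0%, 1.23% to 31.7%) and in 16 of 32 of stretch 159-190. Its mean in cells 191-207 rested on few cells: cell 191 alone held 40.0% of the stretch's summed Junb. Jund (chr8:70697739-70700616), the Jun gene known for steady rather than induced expression, differed least with age, with means of 6.31 ± 9.34 TPM in young cells and 5.15 ± 8.19 TPM in old ones (SD; log2 ratio -0.25). It ran from 0 over a median of 2.92 to 68.9 TPM in young cells and from 0 over a median of 2.04 to 44.6 TPM in old cells. Its young means were 1.92, 11.2 and 7.89 TPM, so that cells 1-54 were lowest, and 47 of 52 cells of stretch 87-138 were above the median of cells 1-54. Jund's old means were 3.90, 5.96 and 5.10 TPM. In GENCODE, Junb overlaps the opposite-strand gene Prdx2 and Jund the antisense gene Gm11175, with the same limit as for Jun.

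Fos made up most of the AP-1 transcripts in every stretch, while the part of the Jun family varied. Fos took 91.3% of the summed mean TPM of the 5 subunits in cells 1-54 and 73.6% in cells 55-86, the highest and the lowest share. Fosb took its largest share, 13.1%, in cells 55-86. Jun took 1.68% in cells 1-54, 11.1% in cells 55-86 and 14.0% in cells 139-158. Fos and Fosb together were at 17.6 times the level of the 3 Jun genes in cells 1-54 and 6.50 times in cells 55-86. The ratio in cells 139-158 was 4.13. By age it was 9.38 in young and 8.53 in old cells.

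**Figure D1:**
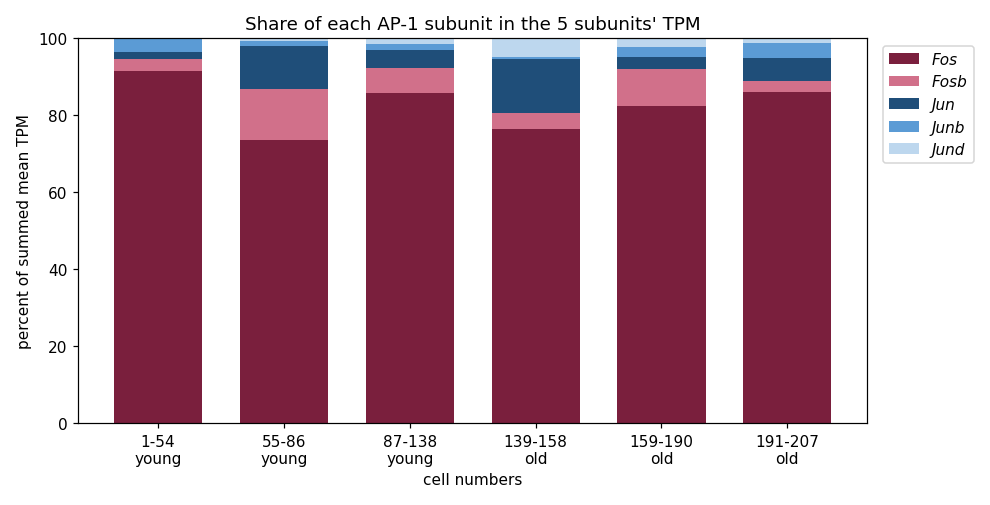
Stacked bars of the share (percent of summed mean TPM) of Fos, Fosb, Jun, Junb and Jund in each stretch of cell numbers. Fos fills 73.6% to 91.3% of every bar, and Jun's share is smallest in cells 1-54 (1.68%).

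Egr1 was the next most abundant member after Fos, and its stretch means had the same order within each age. Egr1 (chr18:34861207-34864956) is a zinc finger factor that glucose is known to induce in beta cells. It ran from 0 over a median of 189 to 1740.0 TPM in young cells and from 0 over a median of 17.4 to 1329.9 TPM in old cells. The means were 300.2 ± 331 and 137 ± 294 TPM (SD), a log2 ratio of -1.13, and 11 of 69 old cells were above the young median. The young stretch means were 224, 527 and 239 TPM, and the old means 37.3, 163 and 204 TPM. The old means hung on few cells: in stretch 191-207 the median was 13.8 TPM, and cell 196, at 1329.9 TPM, held 38.3% of the summed Egr1. In cells 139-158 Egr1 was listed at 0 in 6 and detected in 11 of 20 (55.0%, 31.5% to 76.9%), against 31 of 32 in cells 159-190 (96.9%, 83.8% to 99.9%).

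Nr4a1 was the one member not highest in cells 55-86. Nr4a1 (chr15:101253902-101274795), an orphan nuclear receptor induced by calcium and cyclic AMP, had young means of 15.7, 10.4 and 3.88 TPM, highest in cells 1-54. By medians, however, cells 55-86 were highest (5.35 TPM against 3.42 and 2.11), and cell 12, at 185 TPM, held 21.7% of the Nr4a1 of cells 1-54. It was detected in 38 of 54 cells of stretch 1-54 (70.4%, 56.4% to 82.0%). The old means were 0.112, 7.28 and 6.26 TPM. Nr4a1 was detected in 1 of 20 cells of stretch 139-158 and 3 of 17 of stretch 191-207, where cell 207 held 90.6% of it. The log2 ratio of old over young was -0.89, with values from 0 over a median of 2.98 to 185 TPM in young and from 0 over a median of 0.0797 to 96.3 TPM in old cells.

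Atf3, Klf4 and Klf6 were listed at or near 0 in most cells and high in a few. Atf3 (chr1:191170296-191183333), a CREB-related repressor of the stress response that can pair with Jun, was detected in 39 of 138 young cells (28.3%, 20.9% to 36.5%) and 10 of 69 old cells (14.5%, 7.17% to 25.0%). In cells 55-86 it was detected in 18 of 32, with a mean of 48.2 ± 77.5 TPM (SD) and a highest value of 292 in cell 71. Its means in the other young stretches were 7.50 and 8.96 TPM, and in old cells 159-190 and 191-207 9.06 and 2.28 TPM. Gm24748, a small RNA gene, lies within the longer Atf3 of GENCODE. Klf4 (chr4:55527137-55532475), a Krüppel-like zinc finger factor, was the rarest member, detected in 17 of 138 young cells (12.3%, 7.34% to 19.0%) and 6 of 69 old cells (8.70%, 3.26% to 18.0%). Of the young ones 9 were in stretch 55-86, where cell 75 at 189 TPM held 50.9% of the summed Klf4. Both Atf3 and Klf4 were listed at 0 in all 20 cells of stretch 139-158, so that their exact interval reached 16.8%. By the limit of 3 counts, 0 of 20 cells allows a share of up to 15% of cells with the gene listed, which sets no limit on cells that express it.

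Klf6 (chr13:5861489-5870393), a broadly expressed Krüppel-like factor, ran from 0.259 over a median of 7.75 to 272 TPM in cells 55-86 and was listed at 0 in none of those 32. Its medians in the other stretches were at most 0.304 TPM, and 31 of 32 cells of stretch 55-86 were above the median of cells 87-138. The stretch means were 3.87, 38.9 and 10.5 TPM in young cells and 4.96, 6.85 and 6.05 TPM in old ones. Single cells set several of these means, and the macrophage-marked cells were among them. Cell 112 had 389 TPM of Klf6 beside 15686 TPM of macrophage markers, and without it the mean of cells 87-138 was 3.09 TPM. Cell 32 had 300.2 TPM of Atf3, and without cells 18, 32 and 49 the Atf3 mean of cells 1-54 was 2.00 TPM. Cell 162 had 104 TPM of Atf3 and 96.4 TPM of Klf4. Without that cell the means of stretch 159-190 were 5.99 and 0.192 TPM. In the 201 other cells the macrophage markers summed to less than 1000 TPM. The median sum over all cells of an age was 0.0563 TPM in young and 0 in old cells. The part of macrophage RNA in the values of the marked cells was not tested.

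**Figure D2:**
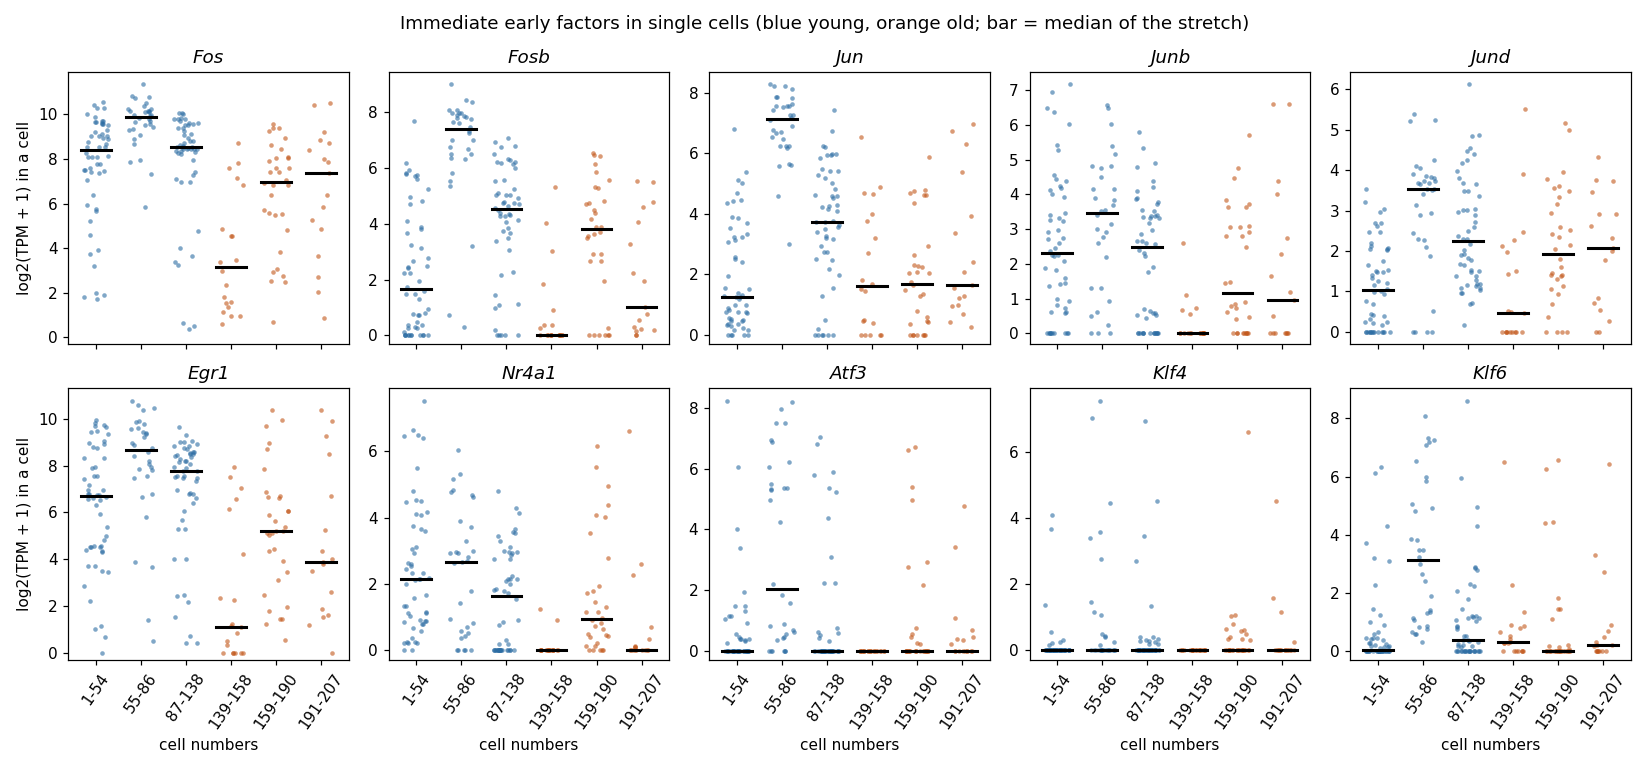
Level of each member, as log2(TPM + 1), in every cell (points; blue young, orange old) by stretch of cell numbers, with the stretch median as a bar. Jun, Fosb and Fos stand highest in cells 55-86, Klf6 there has no cell at 0, and Atf3 and Klf4 lie at 0 in all of cells 139-158.

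Across stretches, young cells 55-86 had the highest mean for 9 of the 10 members, Nr4a1 being the exception. Of all 13826 genes with a mean of 1 TPM or above in a stretch, 14.9% had their highest mean there. Old cells 139-158 had the lowest mean for 7 of 10, Jun, Jund and Klf6 being the exceptions, against 17.1% of all genes. These orders were broad trends over cells that overlapped. The stretches were also ordered by mean log2(TPM + 1), which differs in places from the order of mean TPM. Jund, for example, was then lowest in cells 139-158. Between neighbours in that second order, the difference exceeded the larger of the pair's SDs between cells in 3 of 50 steps. Those were cells 55-86 above the next stretch for Jun (by 3.25 on the log2 scale) and Fosb (2.69), and cells 139-158 below the next lowest for Fos (2.71).

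Age does not differ between young stretches, so they were compared with each other. Between cells 55-86 and 87-138, 9 of 10 members were at least 1.5-fold higher in cells 55-86 (21% of 12026 genes were) and none lower (34.3% of genes were). The median log2 ratio was 1.42, against -0.21 over all genes. Jun (2.49), Fosb (2.32) and Atf3 (2.31) had the largest log2 ratios, and Jund had the smallest (0.45). Of cells 55-86, 31 of 32 were above the median of cells 87-138 for Jun, 28 of 32 for Fos and 23 of 32 for Egr1. Against cells 1-54, which share the 55-86 side of this comparison, 8 of 10 members were at least 1.5-fold higher (27.7% of genes) and 0 lower (36.6%), and the median log2 ratio was 2.30. Junb (0.18) and Nr4a1 (-0.55) were not. Between the other young stretches, 5 members were higher in cells 87-138 than in 1-54 (30.2% of genes) and 2 lower (26.9%). Jund (1.61) and Jun (1.54) led the first, while Nr4a1 (-1.78) and Junb (-0.95) were the lower 2. Fos (0.02) and Egr1 (0.09) had nearly equal means there.

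Among old cells, stretch 139-158 was low. Against cells 159-190, 7 of 10 members were at least 1.5-fold lower (29.7% of 11418 genes were), 2 of them, Atf3 and Klf4, being listed at 0 throughout. None was higher by that much (40.6% of genes were). Over the other 8 the median log2 ratio was -1.92, against 0.23 over all genes. Nr4a1 (-2.90), Fosb (-2.52) and Junb (-2.37) had the lowest log2 ratios, and Jun (0.47) was the one above 0. For Fos, 4 of 20 cells of stretch 139-158 were above the median of cells 159-190. The median number of detected genes was 4570.5 in cells 139-158 and 3633.5 in cells 159-190, and the part of depth in these values was not tested. Between cells 191-207 and 159-190 the members were split, 3 lower (38.3% of 10954 genes) and 3 higher (30.9%), with a median log2 ratio of -0.17.

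Old cells had lower means than young cells for all 10 members, 9 of them by at least 1.5-fold (26.4% of 12155 genes with a mean of 1 TPM or above at either age), and none was higher by that much (16.8% of genes). The median log2 ratio was -1.13, against -0.10 over all genes. Fosb (-1.95), Jun (-1.81), Atf3 (-1.68) and Fos (-1.54) were lowest, and Jund (-0.25) did not reach 1.5-fold. The fewest old cells above the young median were those for Fos (9 of 69), Egr1 and Nr4a1 (11 of 69 each), and the most were those for Jund (32 of 69). The difference depended on the stretches kept. Shares and medians over all genes were not computed for the reduced cell sets below, so their counts cannot be set against all genes. Without young cells 1-54 it was larger, with a median log2 ratio of -1.51. It was smaller without young cells 55-86 or without old cells 139-158. Without young cells 55-86 the median log2 ratio was -0.70, and 6 of 10 members were at least 1.5-fold lower. Without old cells 139-158 the values were -0.90 and 6 of 10. With both left out, a choice made after the data had been seen, the median was -0.33 and 1 member, Fos (-0.83), was at least 1.5-fold lower. Egr1 was then at -0.39, Jun at -0.31 and Fosb at -0.35, and Klf4 (0.35) and Jund (0.19) were on the other side of 0.

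Only Fos and Egr1 of the 10 had all 3 old stretch means below all 3 young ones (7.7% of genes did). None had the opposite order (2.59% of genes did). For Fos the highest old mean was 322 TPM and the lowest young mean 432 TPM. For Egr1 these were 204 and 224 TPM. Both kept that order when the highest cell of each stretch was left out. Klf4 then had it too, but only between means of 0.214 (highest old) and 0.273 TPM (lowest young), both under the detection level. The share of all genes with that order was not computed for means without the highest cells. Without the 6 macrophage-marked cells, also a choice made later, the median log2 ratio of age was -1.41 and 9 of 10 members were at least 1.5-fold lower. The share of all genes was not computed without these cells. Klf4 differed most under that choice, at -1.81 in place of -0.84. Age and stretch cannot be told apart, since no stretch holds cells of both ages.

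**Figure D3:**
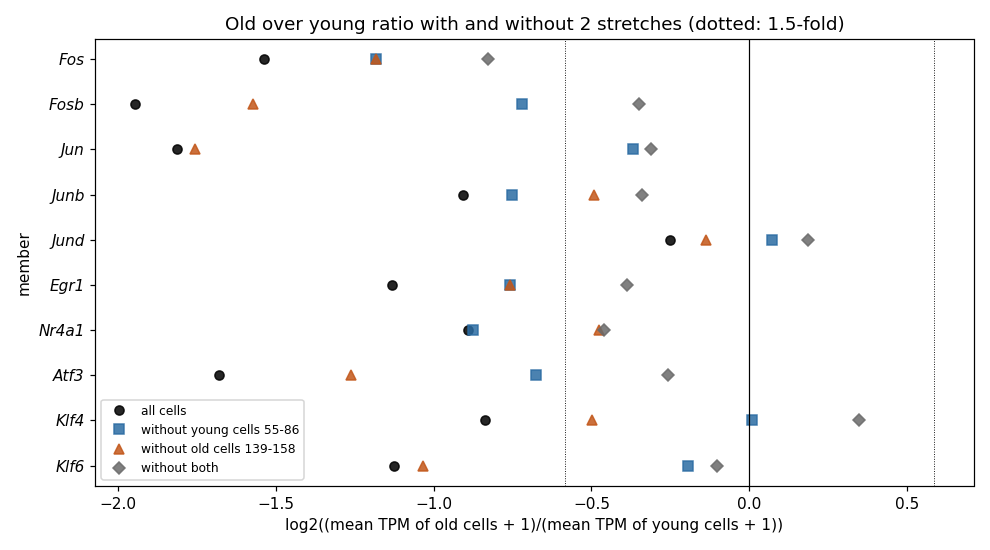
Log2 ratio of mean TPM + 1 of old over young cells for each member (x axis), with all cells (black circles), without young cells 55-86 (blue squares), without old cells 139-158 (orange triangles) and without both (grey diamonds). Dotted lines mark a 1.5-fold difference, which only Fos passes (-0.83) when both stretches are left out.

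The number of members detected in a cell followed the same stretches. It was 6.28 ± 1.8 (SD) of 10 in young and 4.68 ± 2.10 in old cells. In stretch order the young means were 5.41, 7.78 and 6.27 and the old means 2.90, 5.66 and 4.94. All 10 were detected in 6 cells, each of them in stretch 55-86, where 20 of 32 cells had 8 or more. At the other end, 10 of the 20 cells of stretch 139-158 had 2 or fewer, against 3 of the 187 other cells. The summed TPM of the members had medians of 622, 1893 and 791 in the young and 32.7, 290.4 and 267 in the old stretches. It was highest in cell 75 (5262 TPM), which held the highest value of Fos, Fosb and Klf4 among all cells, and lowest in cell 154 (1.67 TPM), in which none was detected.

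**Figure D4:**
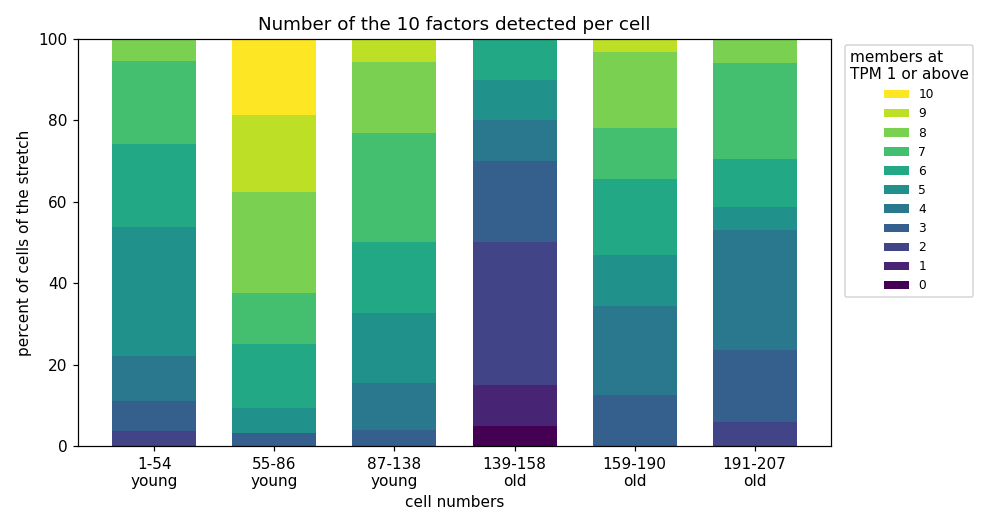
Percent of the cells of each stretch (y axis) by the number of the 10 members at TPM 1 or above (colour, 0 dark to 10 yellow). Cells with all 10 occur only in stretch 55-86, and cells with 2 or fewer make up 50% of stretch 139-158.

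The members varied together over single cells. All 45 pairs had a Spearman rho above 0 over the 207 cells, with a median of 0.28 and a range of 0.07 to 0.57. Most gene pairs were above 0 too, 77.4% of all pairs of genes detected in at least 25% of cells. These correlations are descriptions: the points share libraries, stretches, depth and a fixed TPM total. Among the 8 members detected in at least 25% of cells (all but Atf3 and Klf4), 16 of 28 pairs were at 0.3 or above, against 0.346% of the 17835378 pairs of the 5973 genes detected as widely. The median of those 28 pairs was 0.32, against 0.06 over all gene pairs. Klf6, detected in 68 of 207 cells, passed the 25% filter only through stretch 55-86, which held 25 of them. The highest values were those of Fos with Fosb (0.57), Fosb with Jun (0.56), Fos with Egr1 (0.50), Fosb with Egr1 (0.49) and Fos with Jun (0.44). Jun and Atf3, which can pair as proteins, were at 0.43, and Egr1 and Nr4a1 at 0.40. Fosb was at 0.3 or above with all 9 others, Fos with 7 and Jun with 6. Klf6 had the lowest median over its 9 pairs (0.17), and Klf4 had the fewest pairs at 0.3 or above (1). The lowest values were those of Klf4 with Klf6 (0.07) and of Klf6 with Junb and with Nr4a1 (0.09 each).

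A part of this co-variation lay between stretches and a part within them. When each gene's log2(TPM + 1) was centred on the stretch mean, the median of the 45 pairs was 0.17 and 43 pairs were above 0. Of all pairs of widely detected genes, 70.0% were above 0 by that measure. Among the 28 pairs of widely detected members, 4 remained at 0.3 or above, against 0.156% of all gene pairs. They were Fos with Fosb (0.42), Fos with Egr1 (0.39), Fosb with Egr1 (0.39) and Fosb with Jun (0.33). Of the 28 pairs that could be measured in all 6 stretches, 8 were above 0 in every one. These were Fos with Fosb, Jun, Junb, Jund and Egr1, and Fosb with Jun, Junb and Egr1. The share of all gene pairs above 0 in every stretch was not computed. Fos with Fosb ran from 0.24 to 0.66 over the stretches, and Fos with Egr1 from 0.22 to 0.62. Fos with Jun was weaker within stretches, from 0.02 to 0.40. The median over the pairs within a stretch was lowest in cells 1-54 (0.05) and highest in cells 55-86 (0.29), over all 45 pairs except in cells 139-158, where 28 could be measured (0.25). In cells 55-86 the highest was Egr1 with Nr4a1 (0.65). By age the medians were 0.24 in young and 0.24 in old cells. Fosb with Jun, however, was at 0.61 in young and 0.42 in old cells, and Fosb with Egr1 at 0.36 and 0.60, differences that were not tested. These values pool the stretches of an age. Within stretches Fosb with Jun was at 0.07, 0.47 and 0.34 in young and 0.43, 0.43 and 0.45 in old cells. Fosb with Egr1 was at 0.03, 0.35 and 0.24 in young and 0.61, 0.58 and 0.33 in old cells.

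**Figure D5:**
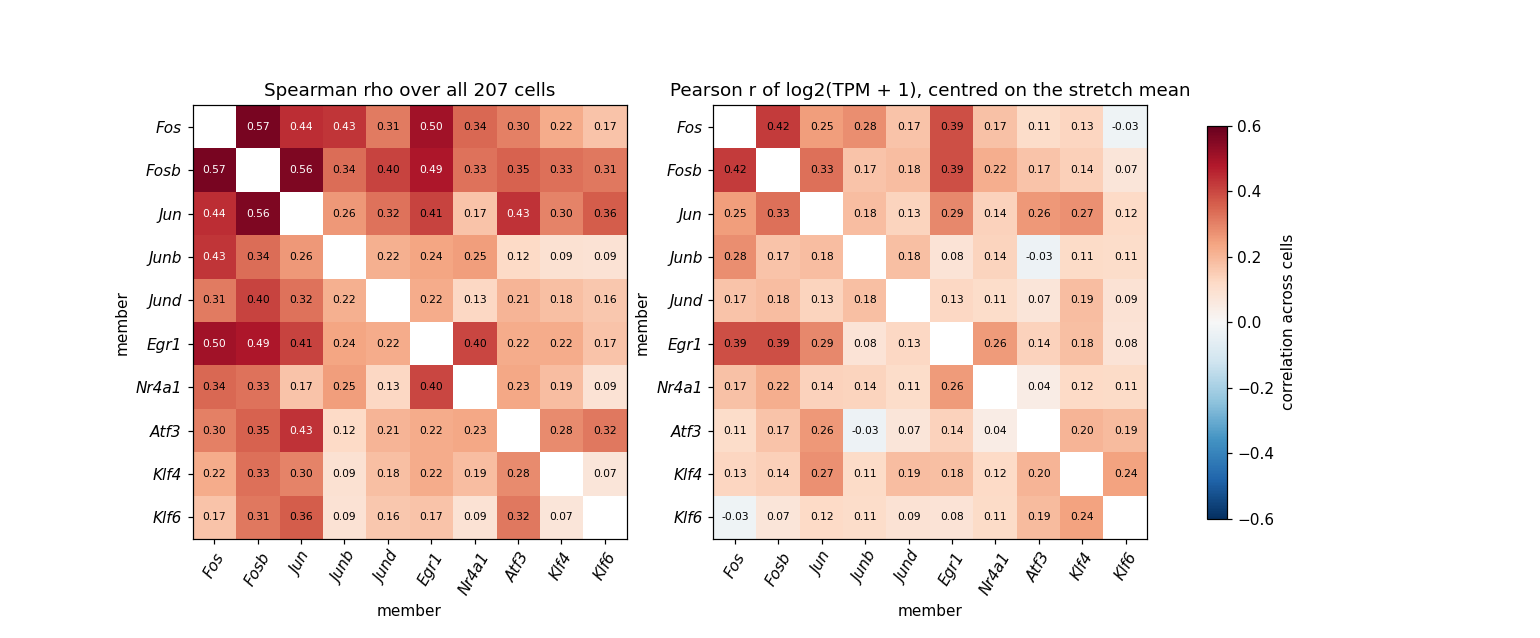
Correlation of each pair of members over 207 cells, as Spearman rho of TPM (left) and as Pearson r of log2(TPM + 1) centred on the stretch mean (right). The block of Fos, Fosb, Jun and Egr1 is the strongest in both, with Fos and Fosb at 0.57 and 0.42.

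Cells with the rare members mostly had the common ones too. All 23 cells with Klf4 had Fos and Fosb, and 22 of the 23 had Jun. All 49 cells with Atf3 had Fos, and 45 of them had Jun. Atf3 was detected in 45 of 149 cells with Jun and in 4 of 58 without it. Fosb was detected in 142 of the 199 cells with Fos and in 2 of the 8 without it. Egr1 was in 141 of 144 cells with Fosb and in 49 of 63 without it. Fos was in nearly every cell, so its presence beside a rare gene carries little information. Jun was in 149 of 207 cells and Fosb in 144 of 207. Cells 55-86, with Jun in 32 of 32 and Fosb in 30 of 32, held 18 of the 49 cells with Atf3 and 9 of the 23 with Klf4. The part of the stretch in these counts was not tested.

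A score, the mean of the standardised log2(TPM + 1) of the 8 widely detected members, ranked the cells. Of the 20 highest scores 19 were in stretch 55-86, led by cells 75, 63 and 72, and of the 20 lowest 12 were in stretch 139-158. This ranking restates the stretch levels of the members and is no separate result. Klf6 is among the 8 only through stretch 55-86, which held 25 of the 68 cells with it. Cell 72 is one of the macrophage-marked cells. The score had a rho of 0.26 with the number of detected genes and -0.14 with the mitochondrial coding share of TPM. Centred on the stretch, these were 0.27 and -0.20. The part of depth in the score was not tested. With the heat-shock gene Hspa1b the score was at 0.22 over all cells and 0.23 centred on the stretch. Within the young stretches it was at -0.07, 0.42 and -0.01, and within the old ones at 0.34, 0.20 and 0.02, in the order of the cell numbers. Hspa1b had a mean of only 0.0314 TPM in cells 87-138, so the value there carries little information.

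The genes most like the score over the 207 cells, among non-members detected in at least 25% of cells, included 5 of the list of early-response feedback genes (Btg2, Dusp1, Ier2, Tob1 and Zfp36) among the first 8. Btg2, an antiproliferative gene, had a rho of 0.55 (0.30 centred on the stretch). Dusp1, a phosphatase that switches off MAP kinases, had 0.53 (0.41), and the early gene Ier2 0.45 (0.32). Next came the tubulin gene Tuba1a (0.40), Btg2's relative Tob1 (0.40), Zfp36, which speeds the decay of unstable mRNAs (0.40), Myadm (0.40) and the splicing factor gene Tra2b (0.38). The mean of Btg2 over the stretches was 209, 450.0 and 186 TPM in young cells and 55.2, 82.0 and 44.4 TPM in old ones. Dusp1 was at 66.0, 234 and 93.6 and 67.1, 57.2 and 25.6 TPM. Both were thus highest in cells 55-86. The lowest values were those of the mitochondrial genes ND4 (-0.29) and ND2 (-0.28) and of the stress gene Nupr1 (-0.25). For single members, Fos was most like Btg2 (0.52), Dusp1 (0.44) and Tob1 (0.36). Jun was most like Dusp1 (0.53), Btg1 (0.47) and Btg2 (0.45). Jund was most like Tspan3, Tob1 and Shoc2 (0.39, 0.32 and 0.30).

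The rest of the pathway was read from 7 gene lists, whose counts stand beside the shares over all genes. Of the 11 other AP-1 subunits and partners, 5 had a mean of 1 TPM or above at either age, and 1 of them was at least 1.5-fold lower in old cells (26.4% of all genes; median log2 ratio -0.29). That was Maff (1.70 against 0.302 TPM, log2 ratio -1.05). Fosl2, the remaining Fos family gene with such a mean, was at -0.45, Mafk at -0.21 and Atf2 at 0.00. Fosl1 was at 0.124 TPM in young cells. Of the other Egr and Nr4a genes and Egr co-repressors, Nr4a2, a relative of Nr4a1, was at 12.1 against 4.11 TPM (log2 ratio -1.36) and the co-repressor gene Nab1 at -0.78. Unlike most members, Nr4a2 (-0.71) and Nab1 (-0.90) were lower in cells 55-86 than in 87-138. They were 2 of the 3 genes of this list measured there, and 1 was higher. Egr2, Egr3 and Egr4 stayed under 1 TPM at both ages, and Nr4a3 was listed at 0 in every cell. Among 10 other Klf genes with a mean of 1 TPM or above, 3 were lower in old cells and 2 higher (median -0.22), close to the 26.4% and 16.8% of all genes. Klf11 (-0.92) and Klf9 (-0.79) were lowest, and Klf3 (0.77) and Klf7 (0.59) highest.

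Of 19 upstream kinases and activators with a mean of 1 TPM or above, 3 were at least 1.5-fold lower in old cells (26.4% of all genes) and 2 higher (16.8%), with a median log2 ratio of 0.06. Srf, the gene of serum response factor, was at 5.91 against 1.89 TPM (log2 ratio -1.25), and the stress kinase gene Mapk14 at -1.18. Creb1, the gene of CREB, was at 0.74. Rps6ka1, at 1.47, was detected in 2.90% of cells at each age, and 1 old cell with 150.3 TPM held nearly all of its old mean. In cells 55-86 against 87-138, 1 of 18 was higher (21% of all genes) and 7 lower (34.3%). Feedback genes of the early response were lower in old cells in 12 of 20 (26.4% of all genes) and higher in 1 (16.8%), with a median of -0.65. In cells 55-86 against 87-138 they were higher in 17 of 21 (21% of all genes; median 1.09). Btg2 (-1.96) and Zfp36 (-1.86) had the lowest log2 ratios of old over young, and the kinase gene Sik1 (0.89) and Ier5 (0.35) the highest. Sik1 was detected in 29.7% of young and 11.6% of old cells, so its higher old mean rested on few cells.

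Of 14 other early genes, 8 were at least 1.5-fold lower in old cells (26.4% of all genes) and 2 higher (16.8%), with a median of -0.67. In cells 55-86 against 87-138, 9 were higher (21% of all genes). Errfi1, a feedback inhibitor of the EGF receptor, was at 22.4 against 8.19 TPM. Ccn1 and Ccn2 count among the genes lower in old cells and higher in cells 55-86. Each was detected in only 0.725% of young cells, at up to 219 and 359 TPM. Ccn1 was detected in 2.90% of old cells, and Ccn2 was listed at 0 in all old cells. Myc (1.24) and the redox gene Srxn1 (1.34) had the highest log2 ratios. Heat-shock genes known from tissue dissociation were lower in old cells in 3 of 10, close to the 26.4% of all genes (median -0.33). In cells 55-86 against 87-138 they were higher in 8 of 10 (21% of all genes), with a median log2 ratio of 2.23. The inducible chaperone gene Hspa1b was at 0.263, 55.3 and 0.0314 TPM in the young and 5.25, 0.631 and 0.749 TPM in the old stretches, and Hspa1a at 0.470, 61.9 and 0.0182 and 14.8, 0.850 and 0.947 TPM. Both were thus highest in cells 55-86, as were 9 of the members. Cells 139-158, where 7 members were lowest, had the highest mean of both genes among the old stretches. The part of cell dissociation in the members' levels was not tested.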

How the data were processed

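Single islet cells of male mice were captured on a Fluidigm C1 chip, cDNA came from the SMARTer kit and libraries from Nextera XT, per the protocols in the labels. CASAVA 1.8.2, FastQC and the build GRCm38 (mm10) are named per the submitters' processing notes. Not given in the sources used here: aligner, counting program, annotation and use of strand. For 207 cells the authors deposited TPM values, which keep no read depth, so the precision of a single value is unknown and a gain in an abundant transcript lowers all others. Rows are NCBI Gene numbers, of which 39725 of 44448 were matched to RefSeq symbols (GRCm38.p6). Gene positions are RefSeq's, and overlaps between genes were read from a GENCODE annotation of the same build.

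Groups are the ages in the labels. The main values use every cell, without a doublet call, and no pair of cells was identical. A log2 ratio is log2((mean TPM + 1)/(mean TPM + 1)), which understates the differences of low genes. All 10 members had a mean of 1 TPM or above at either age, and the same minimum was used for all genes. Detected means TPM 1 or above. No p-value or standard error was computed, since each age is 1 sample. Spearman correlations used TPM, and centred ones Pearson's r of log2(TPM + 1) after subtraction of the stretch mean. The functions for ratios and correlations were tested on simulated data. Named genes were all members, the 8 non-members with the highest and the 3 with the lowest rho with the score, the 3 most like Fos, Jun and Jund, and the 2 highest and 2 lowest age ratios of each list. The members, the lists and the stretches were chosen with earlier results of these data known. Computation used Python 3.11.15, numpy 2.4.6, scipy 1.17.1 and pandas 2.3.3.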

Additional observations from a re-analysis of the deposited data

How the results depend on the processing

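The age of a cell cannot be told apart from its stretch of cell numbers, depth is unknown, and cells are not replicates. The median age ratio of the members stayed below 0 under all 17 alternatives (-1.51 to -0.33 on the log2 scale). The count at least 1.5-fold lower ran from 1 to 9. Both were smallest without cells 55-86 and 139-158, an alternative chosen after the data were seen (-0.33 and 1 member). Klf4 and Jund passed 0 without cells 55-86 (0.0086 and 0.07) and without both stretches (0.35 and 0.19). The ratio of young cells 55-86 over 87-138 had a median of 1.11 to 1.67 under 9 alternatives, with 8 to 10 members higher. Shares over all genes were not computed under the alternatives, so neither range of counts can be set against all genes. The median pair correlation (0.28) was 0.17 after centring on the stretch, 0.16 after regression on stretch and detected genes, 0.16 as the phi coefficient of detection, 0.17 without cells 55-86 and 0.13 without both stretches. Members detected per young cell were 4.15 at TPM 10 and 2.54 at TPM 50, and per old cell 1.19 at TPM 50. No paired analysis was possible because the labels give no replicate numbers shared by the ages.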
